A study of Rattus norvegicus with 4 samples.

Results

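The 31 genes described here mark microglia, the resident macrophages of the brain, or macrophages in general, and their expression was measured in cultured rat oligodendrocyte precursor cells (OPCs) that had received a microRNA. The members were given as a list of symbols. They were matched through the transcript accession of each array probe, and the probe with the highest mean over the 4 arrays stood for its gene. All 31 members had a probe, among 16581 gene symbols named on the array. They fell into 11 activation-related and phagocytic genes, 6 homeostatic genes that mark resting microglia, 10 general myeloid and leukocyte genes, 2 transcription factor genes and 2 genes of the macrophages at the borders of the brain.

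The OPCs, from which myelinating oligodendrocytes develop, were prepared from rat cortices at postnatal day 2 and grown with bFGF and PDGF for 3 days, per the labels. The 2 miR-125a-3p samples were transfected with mimics of that microRNA at 50 nM and the 2 miR-neg samples with a negative control RNA, both with Lipofectamine RNAiMax, so all 4 samples had been exposed to the lipid reagent. RNA was taken after 48 h, and 100 ng was labelled with Cy3 and hybridised to 1 single-colour Agilent array per sample. The labels call the cells oligodendrocytes and state no strain, sex, sorting step or depletion of microglia. Each condition had 2 samples that the submitters describe as independent, with no word on animals or cultures. The p-values here therefore measure only the spread between these samples, which may be technical.

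Microglia arise from yolk sac precursors, not from the neural lineage that gives OPCs, and cultures made from newborn cortex can carry some of them. Their survival depends on the receptor Csf1r, and the transcription factors PU.1, encoded by Spi1, and Irf8 set their identity. Resting microglia express the purine receptor P2ry12 and the fractalkine receptor Cx3cr1, while phagocytic or activated microglia raise genes of the Trem2 receptor, its signalling adaptor Tyrobp, and lysosomal and surface proteins such as Cd68 and Cd14. By its title, the series asked how raised miR-125a-3p affects gene expression. The mature rat microRNA is shown because it is the agent that separates the groups, with its seed (bases 2 to 8, the part that pairs with target transcripts) in capitals. The sequence is RefSeq's for rat (GRCr8, chr1:67350727-67350748, plus strand), and the sequence of the transfected mimic itself was not given in the sources used here.
rno-miR-125a-3p: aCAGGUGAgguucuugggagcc

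Levels are given as the log2 signal relative to the 75th percentile of the array, so 0 is that percentile itself. Between 26332 and 28138 probes per array were well above background, the scanner software's flag for a spot brighter than its surroundings, and 0 spots were saturated. The precision is limited by the 2 arrays per group. Of the OPC identity genes on the array, 11 of 11 were well above background on all 4 arrays, among them Olig1 and Sox10. So were 10 of 10 astrocyte markers and 7 of 8 neuron markers, so detection alone does not show the make-up of the culture. All arrays came from 1 slide and 1 scan. Position along 1 axis of the slide followed the group and position along the other followed the replicate number, so group and position on the first axis cannot be told apart.

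Of the 31 members, 21 were well above background on at least 1 array, 14 on all 4, and 10 on none. The count per array was 15 and 16 in miR-neg and 20 and 17 in miR-125a-3p. Detection was split: P2ry12, Cx3cr1, Cd68, Coro1a, Tyrobp and Aif1 were well above background on every array. In contrast, Ptprc (the leukocyte surface phosphatase CD45), Itgb2 (the beta 2 integrin that pairs with Itgam), Cd74, Cybb, Gpr34, Msr1 and Fcgr2b were so on none. P2ry12 and Cx3cr1 lay between percentiles 74.2 and 80.8 of the arrays, and Csf1r between 29.0 and 48.9. Which cells gave the signal at each probe was not tested. The border macrophage genes Mrc1 and Cd163 were also below that limit on all 4 arrays, as was Csf3r on the 3 arrays where its spot was usable. In RNA from a whole culture, fewer cells of a type and less RNA per cell cannot be told apart.

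**Figure D1:**
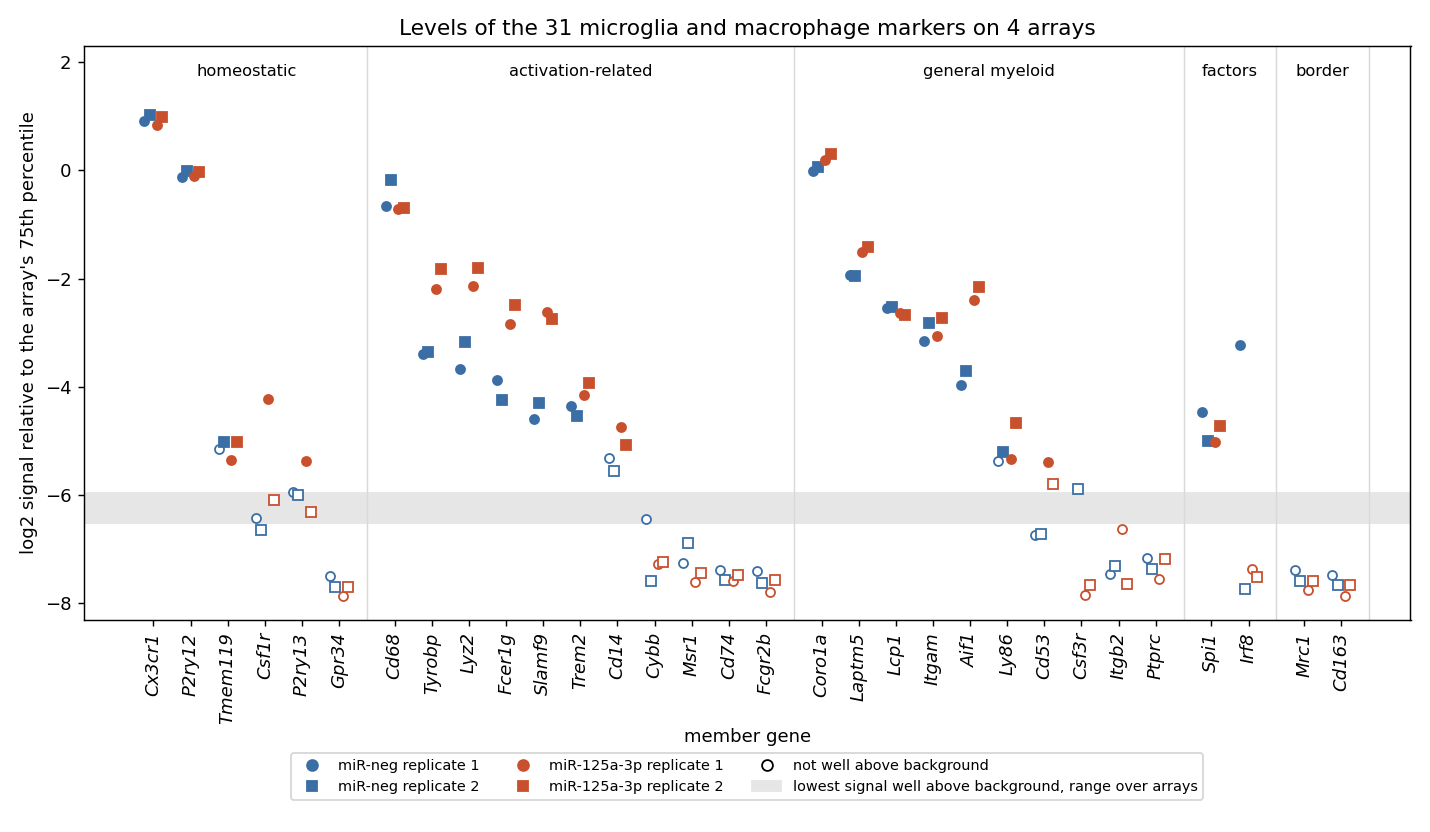
Level of each of the 31 members on each array (log2 signal relative to the 75th percentile of the array), grouped by class, with miR-neg in blue and miR-125a-3p in red. Open symbols were not well above background. Tyrobp, Lyz2, Fcer1g, Slamf9 and Aif1 lie higher on both miR-125a-3p arrays than on both miR-neg arrays, while P2ry12 and Cx3cr1 overlap.

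Slamf9, a member of the SLAM family of immune cell surface receptors (NM_001105971), was the only member that passed the test between the groups. Its level was -4.60 and -4.30 in miR-neg and -2.61 and -2.75 after the mimic, from processed signals of 30.7, 34.4, 115 and 107. Each signal came from 1 spot of 1 probe. Both miR-125a-3p arrays were above both controls, and the replicates of a group lay within 0.30 of each other. Slamf9 rose by 1.77 on the log2 scale (SE 0.14, 95% interval 1.40 to 2.15, n = 2 per group, adjusted p = 0.0409 in limma), a 3.42-fold difference. Its group means were -4.45 ± 0.21 in miR-neg and -2.68 ± 0.10 after the mimic (SD, n = 2). The call was lost when any 1 of miR-neg replicate 1, miR-neg replicate 2, miR-125a-3p replicate 1 and miR-125a-3p replicate 2 was left out (limma adjusted p between 0.175 and 0.221, difference between 1.62 and 1.92). It was also lost when dim probes were kept in (limma adjusted p = 0.23) and with quantile normalization (limma adjusted p = 0.055). With normexp background correction Slamf9 passed, with a smaller difference of 0.72 (limma adjusted p = 0.000953). That setting adds 50 to every signal, which brings log2 differences of dim probes nearer to 0.

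The test took in the 17 members with a signal well above background on 2 or more arrays. Of these, 1 passed, higher after the mimic, and 16 did not. Among all 23155 features tested, 0.687% passed, 0.38% higher and 0.307% lower. Before adjustment, 8 of the 17 had a limma p under 0.05, against 19.5% of all features. The median difference over the 17 was 0.29, against 0.01 over all features tested, and over the 30 members with a value on every array it was 0.05. The first median covers members that could pass the filter through the group in which they were bright, so it does not speak for all 31. Of the 30, 15 lay above 0 and 15 did not.

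Tyrobp and Fcer1g encode short adaptor proteins with an immunoreceptor tyrosine-based activation motif, which carry the signal of Trem2 and of Fc receptors into the cell. Tyrobp lay at -3.40 and -3.35 in miR-neg and at -2.19 and -1.83 in miR-125a-3p. Its difference was 1.36 (SE 0.15, 95% interval 0.96 to 1.76, limma adjusted p = 0.0584), which did not pass although the groups did not overlap. Fcer1g lay at -3.87 and -4.25 in miR-neg and at -2.84 and -2.48 after the mimic. It differed by 1.40 (SE 0.20, interval 0.86 to 1.95) and did not pass either (limma adjusted p = 0.077). Under normexp both passed with smaller differences, 0.81 for Tyrobp and 0.64 for Fcer1g (limma adjusted p = 0.00146 and 0.00591). For both adaptors the gap between the groups was wider than the spread within either group.

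Of the member receptors for lipids, microbial products and antibodies, none passed the test. Trem2, the lipid-sensing receptor of phagocytic microglia, was at -4.35 and -4.54 in miR-neg and at -4.15 and -3.93 after the mimic. Its difference was 0.40 (SE 0.13, interval 0.05 to 0.75, limma adjusted p = 0.216), and it did not pass, with 0.10 under normexp. Cd14, the co-receptor for bacterial lipopolysaccharide, was not well above background on either miR-neg array (-5.32 and -5.55) and was so on both miR-125a-3p arrays (-4.74 and -5.07). By the bound used for such genes it was 1.44-fold higher after the mimic, and with normexp the difference was 0.06. This bound equals the plain difference of 0.53 (SE 0.16, interval 0.09 to 0.96, limma adjusted p = 0.204), so it sets no lower limit. Where 1 group was below background, each of its arrays entered the bound at the gene's own signal or at the lowest signal well above background there, whichever was higher. Such a bound leaves out the spread between replicates. Neither Trem2 nor Cd14 passed in any setting tried. The inhibitory Fc receptor gene Fcgr2b and the scavenger receptor gene Msr1 were below background on all 4 arrays.

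Among genes of lysosomes, digestion and antigen handling, Lyz2 and Cd68 lay on opposite sides of 0, and neither passed. Lyz2, which encodes the lysozyme of macrophages, was at -3.67 and -3.17 in miR-neg and at -2.14 and -1.80 after the mimic. The difference was 1.45 (SE 0.22, interval 0.84 to 2.06) and did not pass (limma adjusted p = 0.0846), while under normexp it was 0.86 and passed (limma adjusted p = 0.00146). Its other probes, both well above background on all 4 arrays, differed by 1.43 and 1.06, with the groups apart at each. Cd68, a lysosomal membrane glycoprotein used to stain phagocytes, was at -0.66 and -0.18 in miR-neg and at -0.71 and -0.70 after the mimic, a difference of -0.28 (SE 0.19, interval -0.79 to 0.23, limma adjusted p = 0.473). Its miR-neg arrays differed by more than the groups did. Cd74, the invariant chain of class II antigen presentation, and Cybb, the catalytic subunit of the phagocyte oxidase, were below background on every array.

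None of the homeostatic genes passed the test, and the groups overlapped for the brightest of them. Cx3cr1, the fractalkine receptor, was at 0.91 and 1.03 in miR-neg and at 0.83 and 0.98 after the mimic. Its difference was -0.06 (SE 0.10), and the 95% interval ran from -0.34 to 0.22 (limma adjusted p = 0.779). P2ry12, a purine receptor that guides microglial processes to injury, was at -0.13 and -0.01 in miR-neg and at -0.11 and -0.03 after the mimic. Its difference was 0.00 (SE 0.09, interval -0.25 to 0.25, limma adjusted p = 0.997). These intervals leave out a change of the size measured for Slamf9, Tyrobp or Lyz2, but not a small one.

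Tmem119, a membrane protein used to tell microglia from other macrophages, was near its detection limit, at -5.15 (not well above background) and -5.02 in miR-neg and at -5.35 and -5.02 after the mimic (difference -0.10, SE 0.14, interval -0.50 to 0.29, limma adjusted p = 0.74). Csf1r, the receptor for the growth factors Csf1 and Il34, was well above background on 1 array only, miR-125a-3p replicate 1. It was at -6.43 and -6.64 in miR-neg and at -4.22 and -6.09 after the mimic, so it was not tested. The bound of 2.03-fold higher rests on that 1 array. It also takes in the replicate 2 signal, which was not well above background, so it sets no lower limit. The purine receptor gene P2ry13 was likewise well above background only on miR-125a-3p replicate 1, at -5.37, against -6.31 on replicate 2 of that group and -5.94 and -5.99 in miR-neg. Its second probe was also so on that array alone. Gpr34, a lysophosphatidylserine receptor, stayed below background on all 4 arrays.

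Set side by side, 7 of 11 activation-related members entered the test and 6 of these lay above 0. Of 6 homeostatic members 3 entered and 0 of these lay above 0. Cd14, 1 of the 7, entered through the miR-125a-3p arrays alone. With untested members included, 6 of 11 activation-related and 2 of 6 homeostatic members lay above 0. In limma, 1 activation-related member (Slamf9) and 0 homeostatic members passed. At an unadjusted p under 0.05 in limma there were 6 (Cd14 among them) and 0, where 19.5% of all features tested had such a p. The median difference was 1.36 over the 7 and -0.06 over the 3, but 0.40 over all 11 activation-related members and -0.03 over all 6 homeostatic members. Within each array, the median of the 11 minus the median of the 6 was 0.94 and 0.96 in miR-neg and 0.63 and 1.62 after the mimic, values that overlap. Restricted to members well above background on all 4 arrays, 6 and 2 genes, it was -4.16 and -4.31 in miR-neg and -2.76 and -2.63 after the mimic. The groups of arrays were apart by this measure only when dim members were left out. No test was made of it, since the members were chosen with results known. Both medians compare the same probes across arrays, and their size says nothing of which class was more abundant.

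**Figure D2:**
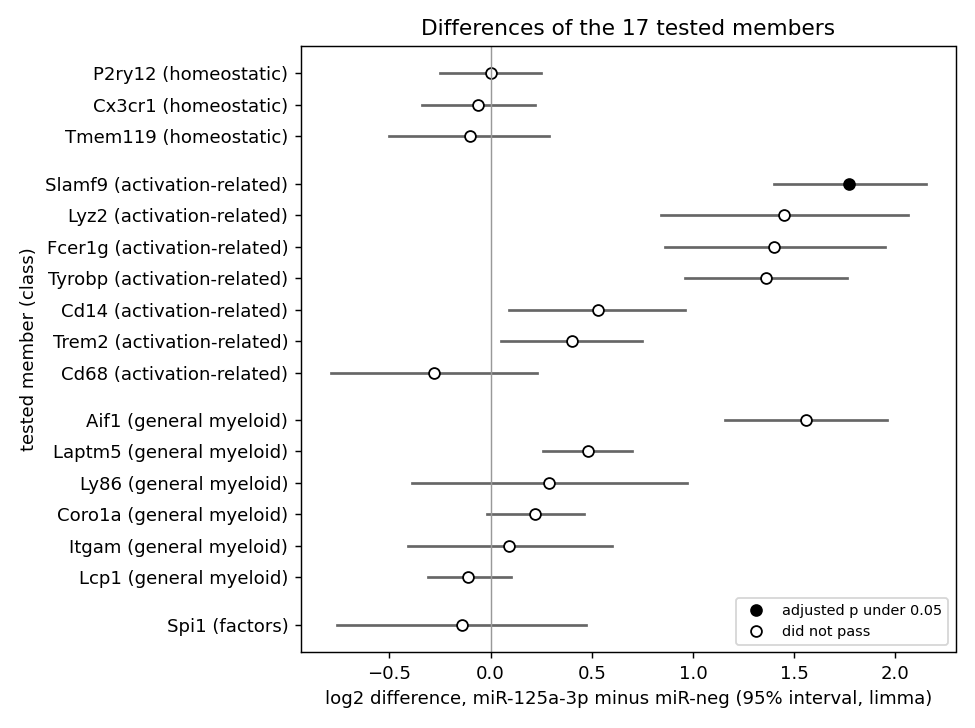
Difference between the groups (log2, miR-125a-3p minus miR-neg) for each of the 17 tested members with its 95% interval from limma, by class. The filled point, Slamf9 at 1.77, passed an adjusted p of 0.05. The intervals of the homeostatic members all include 0.

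The general myeloid genes were mixed. Aif1, which encodes the calcium-binding protein IBA1 used to stain microglia, was at -3.97 and -3.71 in miR-neg and at -2.40 and -2.16 after the mimic. Its difference was 1.56 (SE 0.15, interval 1.16 to 1.96), a 2.95-fold difference that did not pass (limma adjusted p = 0.0515). Its second probe differed by 2.07, with 3 arrays well above background, and averaging the probes of each gene took Aif1 past the threshold. Under normexp Aif1 also passed, with a difference of 0.76 (limma adjusted p = 0.001). Laptm5, a lysosomal protein of blood cells, was at -1.93 and -1.95 in miR-neg and at -1.50 and -1.42 after the mimic. It differed by 0.48 (SE 0.08, interval 0.26 to 0.70, limma adjusted p = 0.0945), a small difference with close replicates, and did not pass.

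The actin regulators of leukocytes, Coro1a and Lcp1, were well above background on all 4 arrays and differed little. Coro1a was at -0.02 and 0.06 in miR-neg and at 0.19 and 0.30 after the mimic (difference 0.22, SE 0.09, interval -0.02 to 0.46, limma adjusted p = 0.284). Lcp1 was at -2.55 and -2.53 in miR-neg and at -2.63 and -2.67 after the mimic (difference -0.11, SE 0.07, interval -0.31 to 0.10, limma adjusted p = 0.495). Itgam, the alpha M integrin known as CD11b, was at -3.16 and -2.82 in miR-neg and at -3.06 and -2.72 after the mimic, a difference of 0.09 (SE 0.18, interval -0.41 to 0.60, limma adjusted p = 0.815). Its replicates differed by more than its groups. Itgam's second probe was well above background on miR-neg replicate 1 alone, with a processed signal of 70.1 against 4.11, 3.73 and 5.90 on the other arrays.

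Ly86, the secreted partner of an endotoxin receptor family member, was at -5.37 and -5.21 in miR-neg and at -5.33 and -4.67 after the mimic (difference 0.29, SE 0.25, interval -0.39 to 0.97, limma adjusted p = 0.574). The tetraspanin gene Cd53 was below background on both miR-neg arrays (-6.74 and -6.72) and well above it on 1 of the 2 miR-125a-3p arrays (-5.39, with -5.80 on the other). It was 1.49-fold higher by the bound and was not tested. That bound takes in the signal of miR-125a-3p replicate 2, which was not well above background, so it sets no lower limit. Ptprc and Itgb2 were below background throughout, and the miR-neg replicate 1 spot of the cytokine receptor gene Csf3r was discarded as an outlier, so no difference was computed for it.

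Neither transcription factor gene passed the test. Spi1 was at -4.47 and -5.00 in miR-neg and at -5.02 and -4.72 after the mimic, a difference of -0.14 (SE 0.22, interval -0.76 to 0.47, limma adjusted p = 0.775), with overlapping groups. Irf8 was well above background on miR-neg replicate 1 alone, with a processed signal of 80.2 against 3.17 on miR-neg replicate 2 and 4.23 and 3.93 after the mimic. It was read from 1 spot per array, as were 21 of the 31 member probes, so a single spot decides that value, and Irf8 was not tested.

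The 9 members that had values on all arrays but were well above background on none differed by between -0.46 and 0.24. Their processed signals, with those of Csf3r, lay between 3.02 and 11.5, where the lowest signal well above background was between 7.63 and 12 on the 4 arrays. Differences in that range carry no measured change. Among the 30 members with values on all arrays, 11 had both miR-125a-3p arrays above both miR-neg arrays and 4 had both below, against 20.4% and 23.2% of all features without the filter. Among the 17 tested, these counts were 9 and 2, against 28.7% and 24.1% of all features tested. Cd14, 1 of the 9, entered the test through the miR-125a-3p arrays alone.

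**Figure D3:**
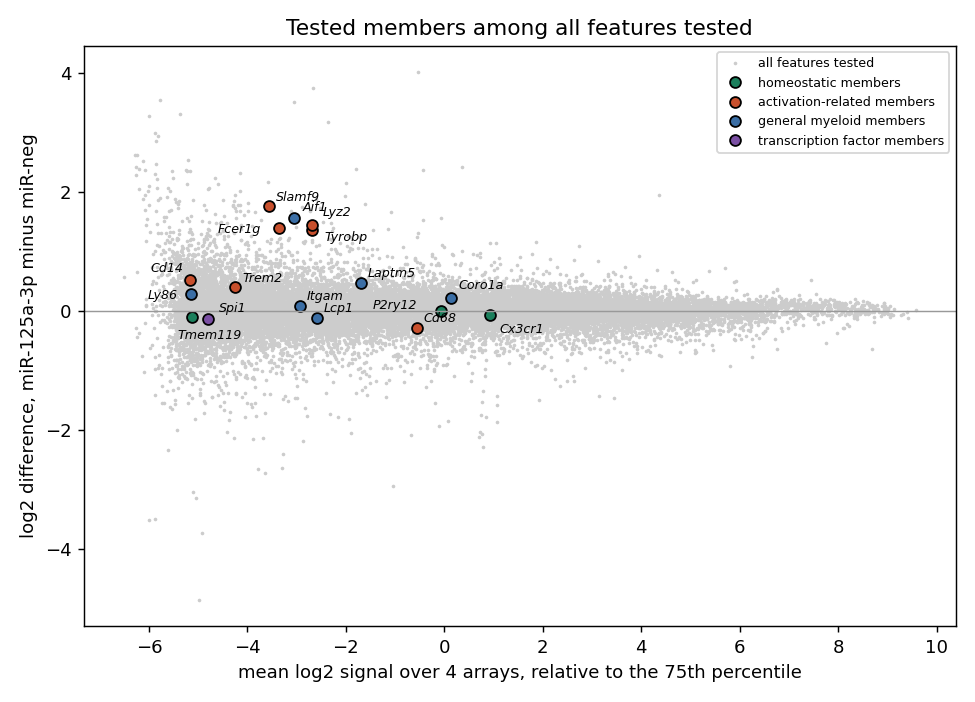
Difference (log2, miR-125a-3p minus miR-neg) against the mean log2 signal over the 4 arrays for all 23155 features tested in grey and the 17 tested members in colour. Slamf9, Aif1, Lyz2, Fcer1g and Tyrobp form a group between 1.36 and 1.77 at mean levels where most features lie nearer 0.

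The stretch upstream of the start site was examined because 15 of the members share a short motif there that the choice of members did not use. PU.1 binds purine-rich DNA with the core GAGGAA. Upstream sequences of 250 bases, from RefSeq's rat promoters (GRCr8), were matched for 20 of the 31 members, and the core stood on either strand in 15 of them, against 23.3% of 33469 promoters of the same length. The longer form GAGGAAGT, which contains the core, was present in 2 of the 20, Slamf9 and Cd53, against 2.04% of promoters. The composite of PU.1 and interferon regulatory factor sites was present in Cd68, Cd74 and Cybb, 3 of the 20, against 2.48%. The 15 with the core included members that were below background, such as Cybb, Ptprc and Mrc1, and others that differed little, such as Cd68 and Itgam, and Slamf9, which passed. A match is a description of these letters and not evidence of binding.

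The 150 bases before the start site are shown for Slamf9, the member that passed, for Lyz2, Trem2, Cd14 and Laptm5, which lay above 0, and for Cx3cr1, a homeostatic member without the core in its 250 bases. The homeostatic members Csf1r and Gpr34 had the core too, as did Cd68, which lay below 0, and they are not shown. The sequences shown therefore do not relate the core to the differences. Each reads in the gene's own direction, and capitals mark the core on either strand. The windows are chr13:87474177-87474326 (plus strand) for Slamf9, chr7:54798012-54798161 (minus) for Lyz2, chr9:20151780-20151929 (minus) for Trem2, chr18:28611159-28611308 (minus) for Cd14, chr5:148371730-148371879 (plus) for Laptm5 and chr8:128677067-128677216 (minus) for Cx3cr1.
Slamf9: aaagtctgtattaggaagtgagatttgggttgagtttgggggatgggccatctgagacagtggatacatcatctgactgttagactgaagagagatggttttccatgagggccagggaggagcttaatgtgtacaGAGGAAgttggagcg
Lyz2: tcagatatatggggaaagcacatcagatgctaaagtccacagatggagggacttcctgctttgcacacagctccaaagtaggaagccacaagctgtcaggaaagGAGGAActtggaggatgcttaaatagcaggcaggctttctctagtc
Trem2: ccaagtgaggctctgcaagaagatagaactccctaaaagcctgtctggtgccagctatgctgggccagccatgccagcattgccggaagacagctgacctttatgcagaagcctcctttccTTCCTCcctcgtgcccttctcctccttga
Cd14: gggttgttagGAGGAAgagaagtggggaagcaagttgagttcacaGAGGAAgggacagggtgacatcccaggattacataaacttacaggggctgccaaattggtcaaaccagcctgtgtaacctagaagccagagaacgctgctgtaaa
Laptm5: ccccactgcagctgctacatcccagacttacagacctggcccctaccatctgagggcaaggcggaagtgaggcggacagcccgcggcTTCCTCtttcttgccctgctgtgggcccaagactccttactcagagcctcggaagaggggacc
Cx3cr1: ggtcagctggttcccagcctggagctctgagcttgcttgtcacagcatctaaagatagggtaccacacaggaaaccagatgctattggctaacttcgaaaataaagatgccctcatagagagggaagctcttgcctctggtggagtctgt

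Other genes of microglia were read from a list of 20. Of these, 16 were well above background on at least 1 array and 13 were tested, of which 9 lay above 0 (median 0.42), where 52.5% of all features tested did. In limma 7 of the 13 had an unadjusted p under 0.05, against 19.5% of all features tested. The complement gene C1qc, 1 of the 7, entered the test through the miR-125a-3p arrays alone. C1qa, a chain of the first complement component, rose by 1.44 (SE 0.10, limma adjusted p = 0.0373), from -4.55 and -4.70 to -3.24 and -3.12. Arhgdib, a regulator of small GTPases in leukocytes, was below background in miR-neg (-5.90 and -5.74) and entered the test through the miR-125a-3p arrays alone (-4.58 and -4.39). It passed (limma adjusted p = 0.0444) and was 2.52-fold higher by the bound. For Arhgdib the bound equals the plain difference and rests on control signals that were not well above background, so it sets no lower limit. Fcgr3a, an Fc receptor gene that signals through Fcer1g, was named after its values were seen. It was below background in miR-neg (-7.35 and -6.97) and well above it on miR-125a-3p replicate 2 alone (-4.91, with -5.62 on replicate 1), so it was not tested. By the bound it was 1.87-fold higher. That bound takes in the replicate 1 signal, which was not well above background, so it sets no lower limit. Of the 13, the other 11 did not pass. Sall1, a transcription factor gene used as a homeostatic marker, differed by -0.19 and did not pass in limma (adjusted p = 0.506). Normexp ended the call on Arhgdib (difference 0.26, limma adjusted p = 0.0976), and quantile normalization did so too (0.0695), while C1qa passed under both, with a difference of 0.57 under normexp. Both calls ended without the filter on dim probes (limma adjusted p = 0.230 and 0.242) and when any 1 of the 4 arrays was left out (limma adjusted p between 0.174 and 0.221 for C1qa and between 0.177 and 0.232 for Arhgdib).

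The ligands that act on microglial receptors were read from a list of 11, of which 9 were tested and 8 lay above 0 (median 0.19). In limma 0 passed, and 3 of the 9 had an unadjusted p under 0.05, against 19.5% of all features tested. Csf1, the ligand of Csf1r, was at 0.56 and 0.63 in miR-neg and at 0.87 and 1.04 after the mimic, a difference of 0.36 (SE 0.10, limma adjusted p = 0.178). Apoe, a lipoprotein that binds Trem2, differed by 1.10 (SE 0.10, limma adjusted p = 0.0517), and Gas6 by 0.13 (SE 0.10, limma adjusted p = 0.534). Among 11 genes that act below the adaptor proteins, 3 were tested, and all 3 lay above 0 without passing in limma (3 at an unadjusted p under 0.05). Among them were Ptpn6 (0.95) and Lyn (0.31), with adjusted p-values of 0.0824 and 0.188 in limma. The kinase genes Syk and Btk and the phospholipase gene Plcg2 were below background on all arrays.

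Genes of the phagocyte activation state were read from a list of 21, of which 19 were on the array and 10 were tested. Of the 10, 9 lay above 0 (median 0.26), where 52.5% of all features tested did. With untested genes included, 12 of the 19 lay above 0 (median 0.13). Gpnmb, a glycoprotein of phagocytes and lysosomes, rose by 0.92 (SE 0.08, limma adjusted p = 0.0454), from -1.63 and -1.61 to -0.74 and -0.67. Lpl, lipoprotein lipase, was below background in miR-neg (-5.41 and -5.53) and entered the test through the miR-125a-3p arrays alone (-4.16 and -4.25). It passed (limma adjusted p = 0.0373) and was 2.41-fold higher by the bound. For Lpl too the bound equals the plain difference and rests on control signals that were not well above background, so it sets no lower limit. Of the 10 tested, the other 8 did not pass, among them Spp1, which encodes the secreted protein osteopontin, named after its value was seen. It was below background in miR-neg (-6.44 and -6.26) and entered the test through the miR-125a-3p arrays alone (-4.35 and -3.62). By the bound it was 4.37-fold higher (difference 2.36, limma adjusted p = 0.0615). In that bound miR-neg replicate 2 stood at its own signal, which was not well above background, so it sets no lower limit. The cathepsin genes Ctsb and Ctsd were the brightest of the list and differed by 0.05 and -0.05. The cytokine and mediator genes Il1b, Tnf, Il6, Ccl4, Nos2 and Ptgs2 were below background on all 4 arrays, so no change in them could be measured. The call on Lpl ended with normexp (difference 0.26, limma adjusted p = 0.101) and that on Gpnmb with quantile normalization (0.0517). Both ended without the filter on dim probes (limma adjusted p = 0.230 and 0.258) and when any 1 of the 4 arrays was left out (limma adjusted p between 0.175 and 0.221 for Lpl and between 0.177 and 0.268 for Gpnmb).

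Markers of other cells in the culture were measured in the same arrays. The linear signals of the 30 members with values, each relative to the 75th percentile and added up, came to 5.67 and 6.17 in miR-neg and 6.36 and 6.91 in miR-125a-3p. The homeostatic sum was 2.85 and 3.1 against 2.81 and 3.02, and the activation-related sum 1.02 and 1.29 against 1.48 and 1.63. Such sums weigh the brightest genes most and do not measure numbers of cells. The brightest were Cx3cr1 and P2ry12 among homeostatic members, Cd68 among activation-related members and Aldoc (7.29 to 7.45) among astrocyte markers. Of 10 astrocyte markers, all well above background on every array, 9 lay above 0 (median 0.21), and the sum was 185 and 197 in miR-neg and 207 and 210 after the mimic. In limma 5 of the 10 had an unadjusted p under 0.05, against 19.5% of all features tested. Aldh1l1, an astrocyte enzyme of folate metabolism, rose by 1.89 (SE 0.09, limma adjusted p = 0.0333) and the other 9 did not pass. Among the 9 were Aqp4 (1.53), Gja1 (1.25) and Gfap (0.66), with adjusted p-values of 0.053, 0.0842 and 0.0759 in limma, and the brighter Slc1a3 (0.32) and Aldoc (0.10). The call on Aldh1l1 ended without the filter on dim probes (limma adjusted p = 0.230) and when any 1 of the 4 arrays was left out (limma adjusted p between 0.150 and 0.214), and with normexp the difference was 1.15. Of 12 endothelial, pericyte and fibroblast markers, 7 were tested, 4 lay above 0 (median 0.05) and 0 passed in limma. At an unadjusted p under 0.05 in limma there were 3, against 19.5% of all features tested. Pdgfrb, 1 of the 3, entered the test through the miR-125a-3p arrays alone. Col1a1 differed by 1.42, Col3a1 by 1.32 and Kdr by -0.18. The sum over these 12 markers was 0.656 and 0.772 against 0.784 and 0.870, and Pecam1, Dcn and Lum were below background on all arrays. The part of these cells in the members' differences was not tested.

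Of 12 OPC identity genes, 11 were on the array and 0 passed in limma (1 at an unadjusted p under 0.05, against 19.5% of all features tested). Their median difference was 0.09 and their sum was 391 and 420 in miR-neg and 401 and 420 after the mimic, with Pdgfra at -0.37, Olig1 at 0.18 and Sox10 at -0.08. Of 8 neuron markers, 7 were tested and 0 passed in limma (2 at an unadjusted p under 0.05), with a median of 0.07, Snap25 at 0.48 and Stmn2 at 0.26. Their sum was 11.5 and 12.8 in miR-neg and 13 and 12.2 after the mimic. The brightest of them, Map2 and Tubb3, differed by 0.07 and -0.05.

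Other blood cells left little signal. Of 8 lymphocyte markers on the array, 6 were below background on every array, Cd3e and Cd8a among them, and the list summed to 0.655 and 0.624 in miR-neg and 0.632 and 0.670 after the mimic. The other 2, Cd4 and Cd3d, differed by 0.05 and 0.01 and did not pass in limma (adjusted p = 0.824 and 0.951). In rats CD4 is carried by macrophages as well as by T cells. Of 10 neutrophil and mast cell markers on the array, 6 were below background on every array, among them S100a8, S100a9, Elane and Ngp, and the sum was 2.75 and 2.84 in miR-neg and 1.83 and 1.79 after the mimic. The bright member of that list was Kit, which OPC cultures may also express, at 1.40 and 1.43 in miR-neg and 0.76 and 0.73 after the mimic. Kit differed by -0.67 (SE 0.08, limma adjusted p = 0.0612), and Fcer1a, a chain of the high-affinity IgE receptor, by 0.58 (SE 0.29, limma adjusted p = 0.367).

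**Figure D4:**
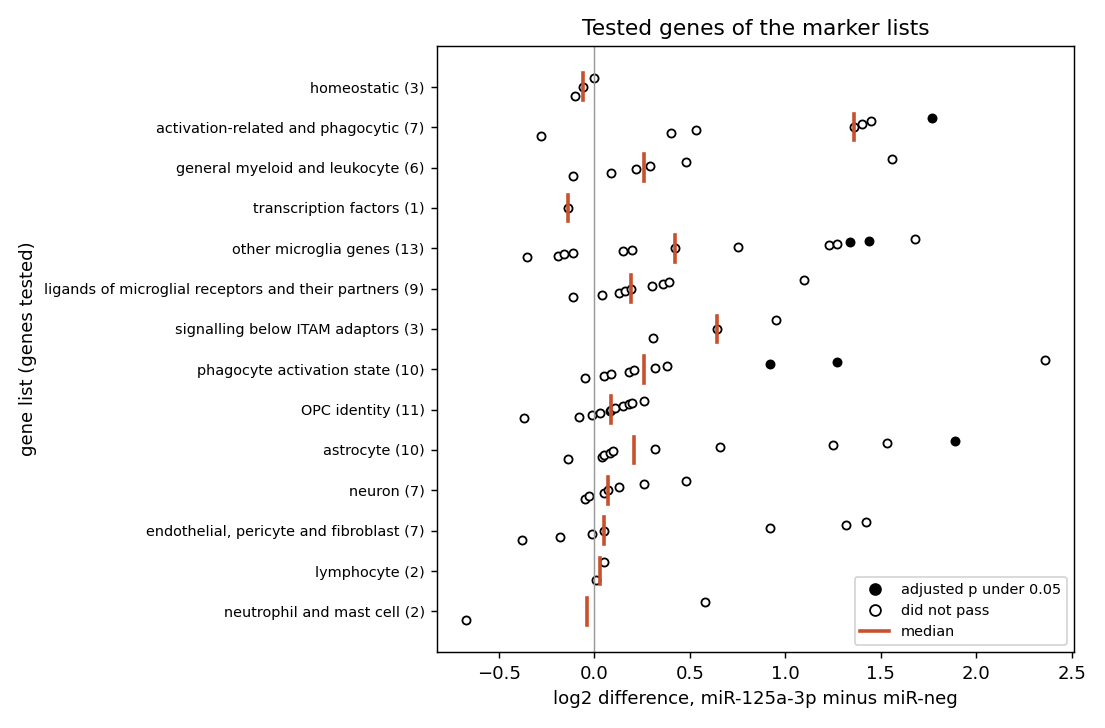
Difference (log2, miR-125a-3p minus miR-neg) of each tested gene in the member classes and the other marker lists, 1 row per list with the number of genes tested in brackets and the median as a red bar. The 6 filled points passed an adjusted p of 0.05 in limma, and the median of the 7 tested activation-related members is 1.36, against 0.40 over all 11 of them.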

How the data were processed

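The 4 arrays carry 1 colour each. Per the file headers, the images were read with Agilent Feature Extraction, version 10.7.3.1. The deposited intensity values are processed signals, background-subtracted and detrended within each array, and flags for spots well above background, per the file headers. The deposited value table holds log2 values. For 45533 probes on each array it equalled the log2 processed intensity minus 1 constant to within 0.01, which settles how it was scaled and centred and which way it runs. The medians of its columns were -4.06, -4.14, -4.07 and -4.13.

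From the scanner values, control spots and outlier spots were left out, replicate spots were averaged as log2 values, and levels were taken relative to the 75th percentile of the array. Of 45598 probes, 65 were left out for outlier spots, and 27250 were kept as well above background on at least 2 arrays. The scanner files hold accessions and no gene names, so symbols came from a RefSeq table of GRCr8, which named 21109 probes (46.3%). The brightest probe stood for each gene, leaving 23155 features. The group comparison used limma, version 3.58.1, under R 4.3.3, with a two-sided moderated test and Benjamini-Hochberg adjustment over all features at 0.05. An exact permutation test of 2 against 2 arrays cannot go below p = 0.333. The fit was first tested on simulated data with known changes. With 2 arrays per group, a difference that did not pass is not shown to be absent. The numbers shared by replicates were not used to pair samples: the deviations of same-numbered arrays correlated at 0.0505 over features, and 2 pairs cannot settle it.

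The members and the lists were chosen with earlier results of these data known, and lists were described by counts and medians with no set test. All members are accounted for. From each other list the text names up to 4 genes past the threshold, otherwise the 2 with the smallest p, and the 2 brightest; further names were picked after their values were seen, and a few genes that the rule names are not reported here. Normexp on median signals was added after seeing the files, which lack the mean signal that had been planned.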

Additional observations from a re-analysis of the deposited data

How the results depend on the processing

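Slamf9 passed in limma with 1 member of 17 tested. The count was 0 under quantile normalization, without the filter on dim probes and with the replicate number as a block (replicate block; Slamf9 adjusted p = 0.0786 in limma), where unadjusted p-values were under 0.05 for 8, 8 and 7 members. Leaving out 1 array gave 0 to 0, with 6 to 9 members at such an unadjusted p. It was 2 with median centring and with the mean of probes (Aif1 added), 5 when probes had to be above background on every array, and 6 with normexp, with a variance trend and at a threshold of 0.1, where Tyrobp, Fcer1g, Lyz2, Aif1 and Laptm5 passed under the first 2. It stayed 1 with the deposited table and with robust variances. Calls over all 23155 features moved too, from 159 in the main fit to 83 with quantile normalization and 205 with median centring. They were 142 with the mean of probes, 1601 with normexp and 2048 with a variance trend. With the filter on every array they were 613 of 21182. The higher member counts thus came from settings that called more features of every kind, apart from the mean of probes. The 5 genes past the threshold in the other lists became 3 with quantile normalization, 9 with median centring, 20 with normexp, 12 with the filter on every array, 23 with a variance trend, 19 at a threshold of 0.1, and 0 without the filter, with the replicate block and, from 0 to 0, with 1 array left out. The median over activation-related members (1.36) was 0.64 with normexp and 0.40 without the filter, and ranged from 1.18 to 1.54 with 1 array left out. The median over homeostatic members ranged from -0.14 to 0.04, and that over all tested members (0.29) was 0.08 with normexp and 0.05 without the filter, and 0.17 to 0.36 with 1 array left out. Without the filter more dim members enter. Normexp was run with an offset of 50 added to every signal, which brings log2 differences of dim probes nearer to 0. How far the offset accounts for the smaller normexp values, and the cause of the other shifts, was not tested. Among the 7 alternatives that ended the call on Slamf9, the sign stayed positive in each. The differences of Cx3cr1, Tmem119, Itgam, Ly86 and Spi1, none past the threshold, changed sign in 1 or 2 of up to 14 alternatives. Depth does not enter for arrays; signals near background limit the 10 members below it on every array.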
